A study of Mus musculus with 26 samples.

Results

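Genes of the blood-brain barrier endothelium, 10 in all, were followed in RNA from mouse cortex after stroke. They were taken by name, as a set drawn up with earlier results of these data known: Cldn5, Ocln, Tjp1, Pecam1, Cdh5, Abcb1a, Abcg2, Slco1c1, Slco1a4 and Mfsd2a. All 10 were found among the 39179 gene entries of each library, and all 10 were among the 16325 genes that passed the filter on low counts. The mice were C57BL/6J, an inbred strain, and tissue was taken 3 days after surgery, either an induced focal stroke or a sham procedure. Diets held 60% of calories as fat (the high-fat diet, HFD) or 6% (the control diet), for 15 or 6 weeks. The 6 groups were stroke on HFD for 15 weeks (6 libraries), stroke on HFD for 6 weeks (6), sham on HFD for 6 weeks (3), stroke on control diet for 15 weeks (4), stroke on control diet for 6 weeks (4) and sham on control diet for 6 weeks (3). Sham cortex at 15 weeks was not analysed here, so stroke was compared with sham at 6 weeks. The stroke samples were cortex holding the infarct and a rim of tissue around it, so every value is an average over all cell types present. No label gives age, sex or batch or says that each library is a separate animal, so p-values here reflect only how far these libraries spread.

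The blood-brain barrier is formed by the endothelial cells of brain capillaries. Tight junctions seal the gaps between these cells, adherens junctions hold them together, efflux pumps return drugs and other lipophilic molecules to the blood, and carriers pass hormones and lipids to the brain. The same cells keep transcytosis, the passage of vesicles across the cell, low. Wnt ligands from neural cells, pericytes and astrocyte endfeet maintain this state, and the barrier becomes leaky after ischemia.

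Counts assigned to genes ranged between 11400882 and 16962682 per library, and each of the 10 genes had between 85 and 2517 counts in every library. A share of fragments was assigned to no gene feature in counting and is called the outside-gene share here, although it may include fragments from introns. This share separated the surgery groups at 6 weeks. It was 29.4% to 32.6% in HFD stroke, against 34.3% to 37.8% in HFD sham. It was 25.8% to 31.8% in control stroke, against 33.1% to 35.8% in control sham. In 2 libraries genes of the choroid plexus were highest: the summed level of 10 such markers was 955 CPM (counts per 1000000 library counts) in HFD stroke replicate 6 and 274 CPM in HFD sham replicate 2. Control sham replicate 2 came next at 82.8 CPM, against 11.3 and 8.41 CPM in control sham replicates 1 and 3, and HFD stroke replicate 4 had 56.1 CPM. At 15 weeks, HFD stroke replicate 1 and control stroke replicate 3 had the lowest summed levels of 10 myeloid markers among stroke libraries, 183 and 286 CPM. Counts of called genes among the 10 that change without either pair are given both ways.

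Beside the set, 30 other endothelial identity genes were measured, all 30 of which passed the filter. Their level describes this list and does not show which cells its RNA, or that of the 10 genes, came from. Their summed level had a median of 1006 CPM in HFD stroke and 831 CPM in HFD sham at 6 weeks, and 935 CPM in control stroke and 845 CPM in control sham. Kdr, a receptor for vascular endothelial growth factor, was present in every group, with a mean of 16.1 ± 3.12 CPM (SD, n = 6) in HFD stroke and 9.55 ± 3.46 CPM (SD, n = 3) in HFD sham. Several of the 10 genes are also known from other cells: Pecam1 from platelets and leukocytes, Tjp1 from astrocytes and neurons, and Slco1c1 from astrocytes and the choroid plexus. In bulk cortex, fewer cells of a type and less RNA per cell cannot be told apart, and neither can more cells and more RNA per cell.

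Levels of different genes were compared per kilobase of exon. In control sham cortex, Tjp1 (16.0 ± 0.489 CPM per kb) and Cldn5 (15.5 ± 0.435 CPM per kb, SD, n = 3 each) were the most abundant and lay within their spread of each other. Slco1c1 followed at 11.9 ± 1.23 CPM per kb. Slco1a4 (7.67 ± 1.47), Abcb1a (7.10 ± 1.24) and Mfsd2a (6.18 ± 1.41 CPM per kb) overlapped within their SDs. Pecam1 (4.20 ± 0.307 CPM per kb), Abcg2 (3.55 ± 0.365 CPM per kb) and Ocln (3.30 ± 0.246 CPM per kb) came next, and the range of mean ± SD of each overlapped that of its neighbour in this order. Cdh5 was lowest at 1.58 ± 0.0241 CPM per kb. In HFD stroke Cldn5 came first, at 25.8 ± 4.70 CPM per kb (SD, n = 6), above Tjp1 at 18.5 ± 0.958 CPM per kb, and Ocln rather than Cdh5 was lowest, although their SDs overlapped (3.64 ± 0.430 and 3.95 ± 1.37 CPM per kb).

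**Figure D1:**
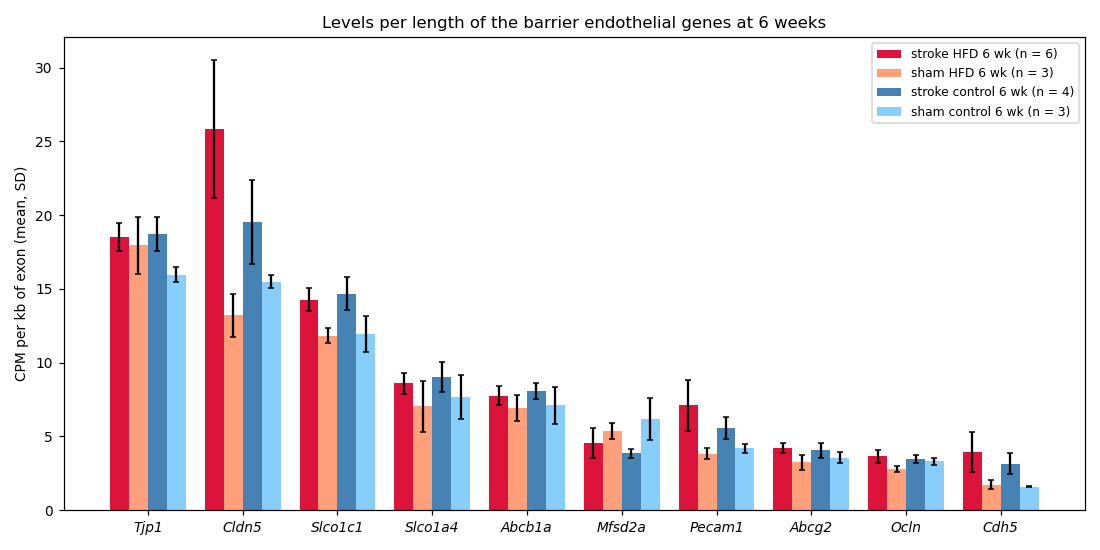
Level of each gene in CPM per kilobase of exon at 6 weeks, with bars for group means and whiskers for SD, genes ordered by their level in control sham. Cldn5 reached 25.8 CPM per kb in HFD stroke and 13.2 CPM per kb in HFD sham, while Tjp1 stood between 16.0 and 18.7 CPM per kb in all 4 groups.

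On HFD at 6 weeks, 6 of the 10 genes were higher after stroke than after sham surgery and none was lower, at an adjusted p under 0.05 in edgeR's quasi-likelihood test over all genes. The 6 were Cldn5, Ocln, Pecam1, Cdh5, Abcg2 and Slco1c1. Of all 16325 genes, 14.2% were called higher and 8.85% lower in that comparison. On control diet 1 gene was called higher, Slco1c1, and 1 lower, Mfsd2a, where 5.10% of all genes were called higher and 2.57% lower. Groups did not overlap for 5 genes on HFD, all higher after stroke (Cldn5, Ocln, Pecam1, Cdh5 and Slco1c1), where 15.8% of all genes were apart in that direction and 10.7% in the other. On control diet 5 genes were apart upward (Cldn5, Tjp1, Pecam1, Cdh5 and Slco1c1) and Mfsd2a downward, where 14.9% and 11.6% of all genes were. The median log2 fold change over the 10 genes was 0.33 on HFD and 0.23 on control diet, against medians of -0.02 and 0.00 over all genes.

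The counts of called genes rested on single libraries and settings. On HFD the count was 6 with all libraries, 1 without sham replicate 1 or without sham replicate 3, 2 without sham replicate 2, and 3 without stroke replicate 2 or without stroke replicate 3. Leaving out any 1 library of these groups left between 1991 and 3736 genes of the whole table called, against 3769 with all libraries. The count of the 10 was 1 (Slco1c1) without the pair high in choroid plexus genes, where 1833 of 16547 genes were called. Without a low-count filter it was 3, where 3272 of 28095 genes were called, and 0 with that outside-gene share as a covariate, where 1372 of 16325 were. Over all 19 alternatives the log2 fold change was at least 0.88 for Cldn5, 0.78 for Pecam1 and 1.04 for Cdh5. On control diet the count of 2 became 0 without sham replicate 1, without sham replicate 3 or without stroke replicate 2, and 1 without stroke replicate 3. Between 303 and 1448 genes of the whole table were called when 1 library was left out, against 1253 with all libraries. The count of the 10 was 1 with no filter (767 of 28095 genes called), 0 with that covariate (533 of 16325 genes) and 6 when only the groups compared entered the fit (2453 of 15416 genes). Those 6 were Cldn5, Tjp1, Pecam1, Cdh5 and Slco1c1 upward and Mfsd2a downward. Without the 15-week pair low in myeloid markers the count was 3, with Tjp1 added to the 2 of the main fit (log2 fold change 0.22, edgeR adjusted p = 0.0442), where 2352 of 16300 genes were called. Without that pair the count on HFD was 6, where 4819 of 16300 genes were called. No called value changed sign under any of these settings. The difference between the diets in the response to surgery was called for 0 of 10 genes and for 0 of 16325 genes (0%), with 914 genes at an unadjusted p under 0.05. DESeq2 called 1 gene of the whole table in that test and limma's voom with quality weights called 1, neither among the 10.

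**Figure D2:**
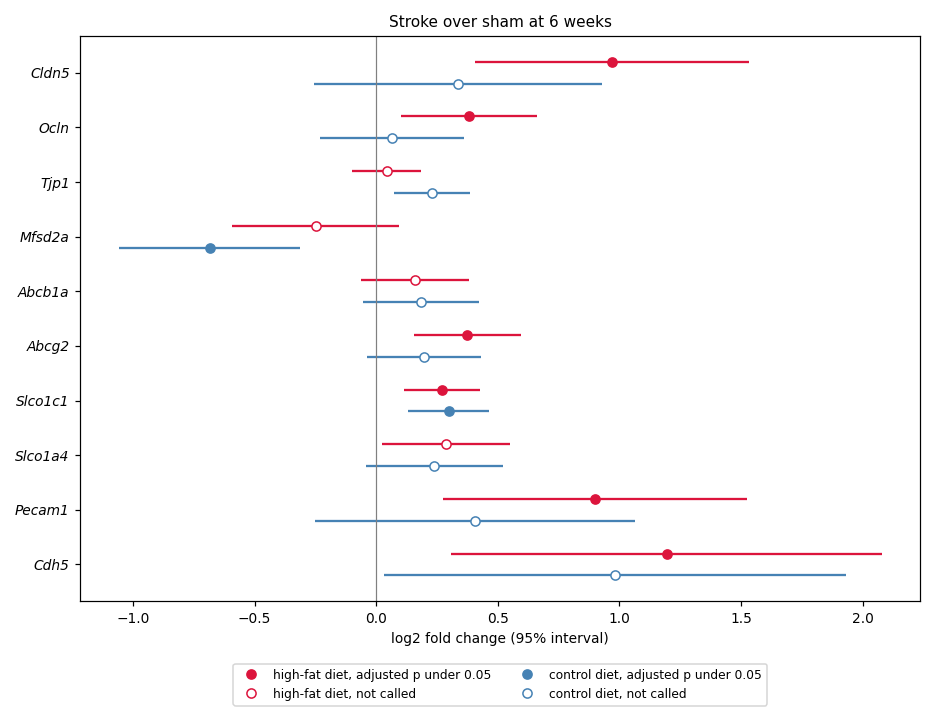
Log2 fold change of stroke over sham at 6 weeks for each gene, with 95% intervals, on HFD (red) and control diet (blue). Filled points passed an adjusted p of 0.05 over all genes. The 6 filled HFD points lie between 0.27 (Slco1c1) and 1.19 (Cdh5), and Mfsd2a lies left of 0 on both diets.

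Of the 3 tight junction genes, 2 rose on HFD and 0 were called on control diet. Cldn5 (ENSMUSG00000041378) encodes claudin-5, the main sealing protein of brain endothelial tight junctions. Its promoter is shown because Cldn5 was the most changed tight junction gene of the set on HFD. The window runs over 250 bases before and 50 bases after the gene's start (RefSeq, GRCm38.p6, chr16:18776597-18776896, plus strand). It was searched on both strands for an ETS core (AGGAAG or CGGAAG, the family of endothelial factors such as Erg and Fli1) and a TCF/LEF core (CTTTGA or CTTTGT, read by Wnt-responsive factors). Neither set of letters occurred in this window, so no letter is in capitals.
Cldn5: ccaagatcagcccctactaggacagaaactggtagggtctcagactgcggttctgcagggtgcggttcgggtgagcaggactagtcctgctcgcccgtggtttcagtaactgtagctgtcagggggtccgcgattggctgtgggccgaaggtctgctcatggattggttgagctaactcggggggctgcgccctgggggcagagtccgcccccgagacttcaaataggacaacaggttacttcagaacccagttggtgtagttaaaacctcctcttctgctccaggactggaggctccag

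In HFD stroke Cldn5 ranged between 27.4 and 46.9 CPM with a median of 35.0 CPM, against 18.1, 21.0 and 17.0 CPM in HFD sham. Every HFD stroke library was above every HFD sham library. The log2 fold change was 0.97 ± 0.27 (SE, edgeR adjusted p = 0.0133), a 1.96-fold difference. On control diet Cldn5 stood at 23.9, 28.5, 25.3 and 33.0 CPM after stroke, against 22.3, 22.2 and 21.2 CPM after sham surgery. These groups did not overlap either, but the log2 fold change of 0.34 ± 0.29 was not called (edgeR adjusted p = 0.522). The fit of only the groups compared called it, as 1 of 17 alternatives (edgeR adjusted p = 0.0497).

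Ocln encodes occludin, a membrane protein of the tight junction strand. Its level was 13.3 to 18.2 CPM in HFD stroke with a median of 15.1 CPM, against 12.3, 12.3 and 10.8 CPM in HFD sham. The lowest stroke library was above the highest sham library, and the log2 fold change was 0.38 ± 0.14 (SE, edgeR adjusted p = 0.0424). Of 19 alternatives 10 kept the call, with adjusted p up to 0.229. On control diet the values were 13.0, 14.7, 14.7 and 15.9 CPM after stroke, against 12.8, 14.8 and 14.2 CPM after sham surgery. These overlapped, with a log2 fold change of 0.07 ± 0.14 (edgeR adjusted p = 0.839).

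Tjp1 encodes ZO-1, the scaffold that ties claudins and occludin to actin. In HFD stroke it spanned 134 to 153 CPM with a median of 144 CPM, against 133, 158 and 130.0 CPM in HFD sham. The groups overlapped and the log2 fold change was 0.04 ± 0.07 (edgeR adjusted p = 0.697). On control diet it was at 145, 155, 149.6 and 135 CPM after stroke, against 120.4, 127 and 126 CPM after sham surgery. Every control stroke library was higher, with a log2 fold change of 0.23 ± 0.08 that missed the threshold (edgeR adjusted p = 0.0599). It was called under 5 of 17 alternatives, DESeq2 and voom among them, with adjusted p between 0.0118 and 0.208. The test of the difference between diets gave -0.19 ± 0.10 (adjusted p = 0.832).

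Both endothelial adhesion genes were higher after stroke in every 6-week library, and both were called on HFD. Cdh5 encodes VE-cadherin, the adherens junction protein of endothelial cells. In HFD stroke it stood between 10.6 and 25.5 CPM with a median of 15.3 CPM, against 7.35, 8.44 and 6.01 CPM in HFD sham. The groups were apart, and its log2 fold change of 1.19 ± 0.43 (edgeR adjusted p = 0.0471) was the largest of the 10 genes, at 2.29-fold. The call was close to the threshold: adjusted p ranged between 0.0136 and 0.183 over 19 alternatives, 10 of which kept it. On control diet Cdh5 was at 13.6, 15.0, 15.3 and 8.82 CPM after stroke, against 6.71, 6.71 and 6.54 CPM after sham surgery. Stroke libraries were again all higher, at 1.98-fold, but the log2 fold change of 0.98 ± 0.46 was not called (edgeR adjusted p = 0.198). It was called under 1 of 17 alternatives, the fit of only the groups compared (edgeR adjusted p = 0.00276).

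Pecam1 encodes CD31, an adhesion molecule of endothelial junctions that platelets and leukocytes also carry. It spanned 32.9 to 60.3 CPM in HFD stroke with a median of 44.5 CPM, against 26.5, 22.5 and 22.5 CPM in HFD sham. No library overlapped, and the log2 fold change was 0.90 ± 0.30 (SE, edgeR adjusted p = 0.0351). The call held under 10 of 19 alternatives, with adjusted p up to 0.182. On control diet it was at 31.1, 40.9, 35.0 and 31.8 CPM after stroke, against 27.7, 26.8 and 24.0 CPM after sham surgery. These groups were apart as well, with a log2 fold change of 0.41 ± 0.32 that was not called (edgeR adjusted p = 0.477). Of 17 alternatives 1 called it, the fit of only the groups compared (edgeR adjusted p = 0.0176).

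**Figure D3:**
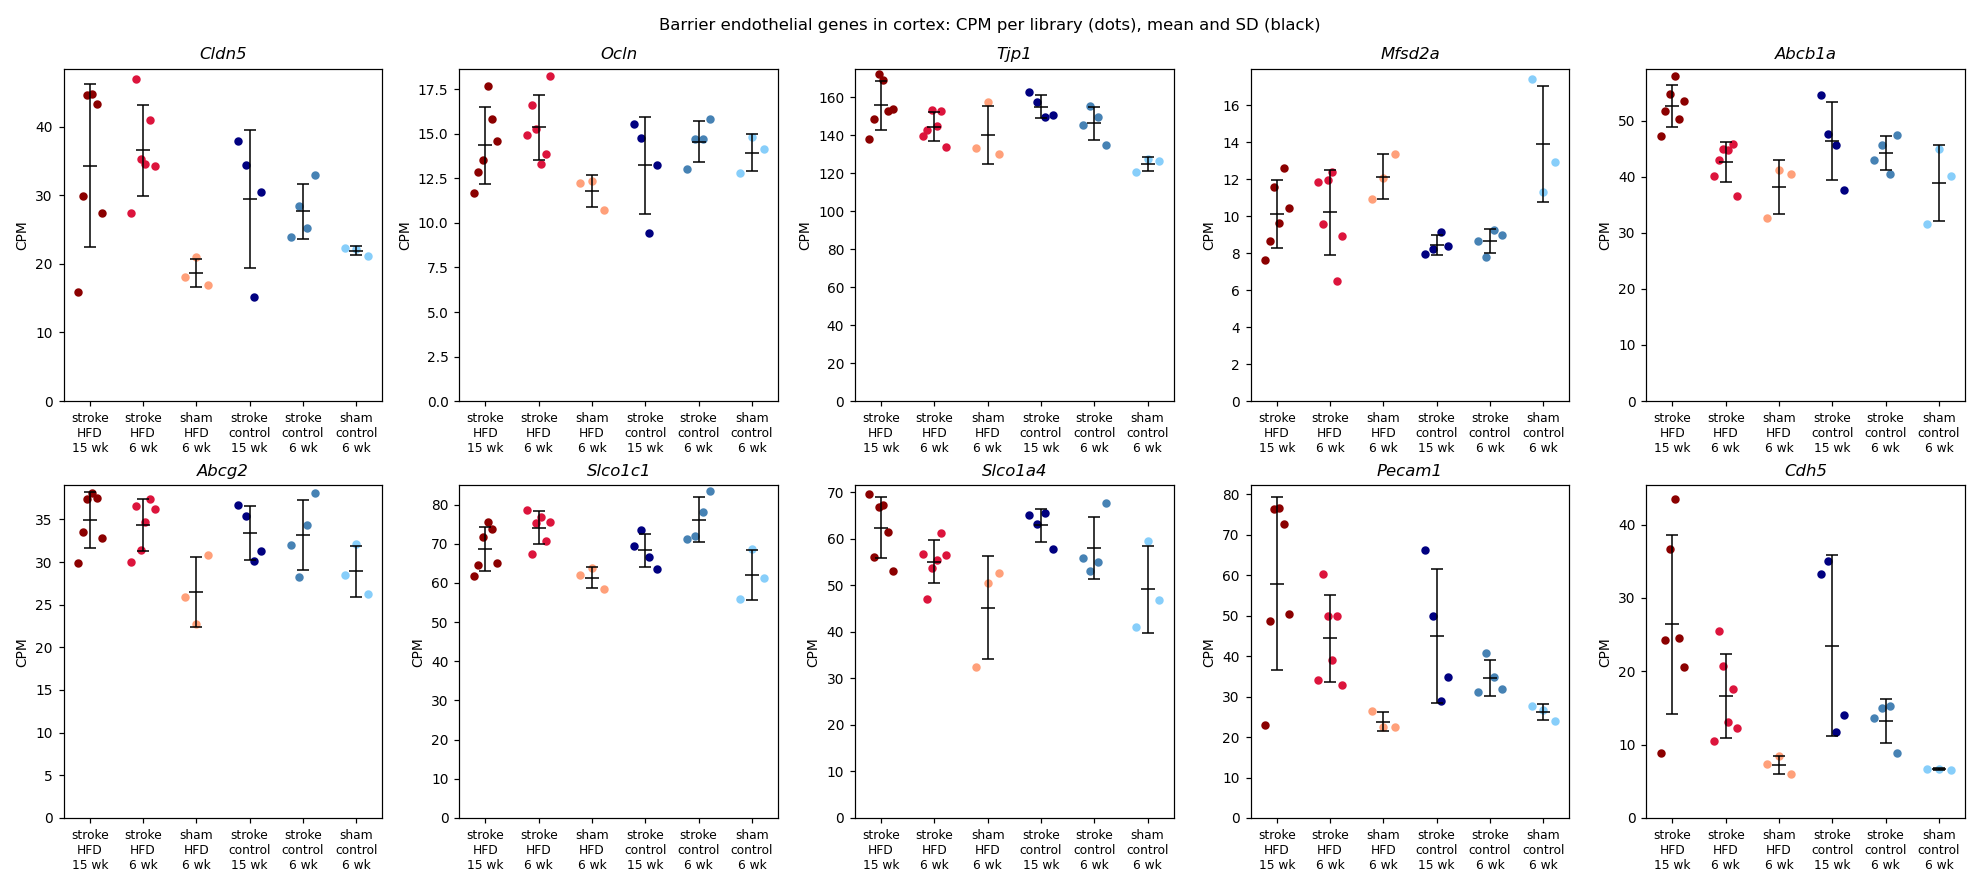
CPM of each gene in every library, by group, with black marks for the mean and SD; the vertical axes start at 0. Cdh5, Pecam1 and Cldn5 are spread widely in the 15-week stroke groups (Cdh5 8.88 to 43.5 CPM on HFD), whereas Tjp1, Abcg2 and Slco1c1 are tightly grouped.

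Among transporters, Slco1c1 was the gene called on both diets. The gene (ENSMUSG00000030235) encodes Oatp1c1, which carries thyroxine across brain endothelium and into astrocytes. Its promoter and that of Mfsd2a are shown because these were the genes called on control diet (RefSeq, GRCm38.p6, chr6:141524104-141524403, plus strand). Capitals mark CTTTGT and its reverse complement ACAAAG (TCF/LEF) and CTTCCT, the reverse complement of the ETS core AGGAAG, none of which overlap.
Slco1c1: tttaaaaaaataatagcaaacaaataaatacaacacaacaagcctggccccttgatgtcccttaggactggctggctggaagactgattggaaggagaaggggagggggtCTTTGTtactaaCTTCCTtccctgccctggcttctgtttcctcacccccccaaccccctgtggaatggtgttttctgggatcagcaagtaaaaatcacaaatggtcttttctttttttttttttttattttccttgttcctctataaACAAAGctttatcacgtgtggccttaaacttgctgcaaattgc

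Slco1c1 was at 67.4 to 78.7 CPM in HFD stroke with a median of 75.4 CPM, against 62.0, 63.8 and 58.4 CPM in HFD sham. All stroke libraries were higher, with a log2 fold change of 0.27 ± 0.08 (SE, edgeR adjusted p = 0.0114), or 1.21-fold. On control diet it stood at 71.1, 71.9, 78.1 and 83.5 CPM after stroke, against 55.9, 68.6 and 61.2 CPM after sham surgery. These groups did not overlap, and the log2 fold change was 0.30 ± 0.08 (edgeR adjusted p = 0.0252), or 1.23-fold. The HFD call held under 17 of 19 alternatives and the control call under 10 of 17. The 8 of 10 choroid plexus markers that passed the filter gave 0 calls in either comparison. Those markers were imprecise, for example Ttr at -2.20 ± 1.92 (SE) on control diet. Without the pair high in those genes, both of them HFD libraries, Slco1c1 was still called on HFD. It stayed called on control diet too, but no control library was left out there, so that call was not put to this check. The part of choroid plexus tissue in these values was not tested.

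Abcb1a and Abcg2 encode the efflux pumps P-glycoprotein and BCRP. Abcg2 spanned 30.0 to 37.4 CPM in HFD stroke with a median of 35.4 CPM, against 25.9, 22.7 and 30.9 CPM in HFD sham. 1 of the stroke libraries, at 30.0 CPM, lay below the highest sham library, and the log2 fold change was 0.38 ± 0.11 (SE, edgeR adjusted p = 0.0133). On control diet Abcg2 was at 32.0, 28.3, 34.3 and 38.1 CPM after stroke, against 28.4, 32.1 and 26.2 CPM after sham surgery, with a log2 fold change of 0.20 ± 0.11 (edgeR adjusted p = 0.305) and overlapping groups. Abcb1a ranged between 36.6 and 45.9 CPM in HFD stroke with a median of 43.9 CPM, against 32.6, 41.3 and 40.5 CPM in HFD sham. It overlapped on both diets, with log2 fold changes of 0.16 ± 0.11 on HFD (95% interval -0.06 to 0.38) and 0.18 ± 0.12 on control diet (95% interval -0.06 to 0.42). Its control values were 43.04, 45.7, 40.5 and 47.4 CPM after stroke, against 31.5, 45.0 and 40.2 CPM after sham surgery.

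Slco1a4 encodes Oatp1a4, a carrier of organic anions and drugs. Its HFD stroke libraries spanned 47.1 to 61.2 CPM with a median of 56.1 CPM, against 32.4, 50.6 and 52.6 CPM in HFD sham. On control diet the values were 55.9, 53.1, 55.1 and 67.8 CPM after stroke, against 41.2, 59.5 and 46.9 CPM after sham surgery. Sham values overlapped stroke values on both diets, and log2 fold changes of 0.29 ± 0.13 on HFD (edgeR adjusted p = 0.107) and 0.24 ± 0.14 on control diet (adjusted p = 0.305) were not called. Counting may split fragments between close paralogs, so the values of Abcb1a and Slco1a4 are uncertain to that extent. The Abcb1a paralog Abcb1b was at 8.95 ± 0.925 CPM (SD, n = 6) in HFD stroke and 5.46 ± 0.0138 CPM (SD, n = 3) in HFD sham, and rose by a log2 fold change of 0.71 ± 0.21 (edgeR adjusted p = 0.0153). The Slco1a4 paralogs Slco1a5, Slco1a6 and Slco1a1 averaged under 1 CPM in every group.

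Mfsd2a (ENSMUSG00000028655), the carrier that brings lysophosphatidylcholine with docosahexaenoic acid into the brain and keeps transcytosis low, had negative fold changes on both diets, while the other 9 genes had positive ones. Its promoter (RefSeq, GRCm38.p6, chr4:122961139-122961438, minus strand) held 1 TCF/LEF match, CTTTGA in capitals, and no ETS match.
Mfsd2a: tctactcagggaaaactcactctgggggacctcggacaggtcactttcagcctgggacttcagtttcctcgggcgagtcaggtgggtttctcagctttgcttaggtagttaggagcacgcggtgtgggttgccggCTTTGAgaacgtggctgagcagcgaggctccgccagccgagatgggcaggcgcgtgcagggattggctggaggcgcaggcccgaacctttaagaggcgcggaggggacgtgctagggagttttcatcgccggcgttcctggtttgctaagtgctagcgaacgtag

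Of 8 genes of the set with a promoter in the table, 3 held the TCF/LEF letters (Mfsd2a, Abcb1a and Slco1c1) and 5 the ETS letters (Tjp1, Abcb1a, Abcg2, Slco1c1 and Slco1a4), against 31.2% and 46.5% of 32851 promoters of that length. The matches are a description of these letters. Pecam1 and Cdh5 were not among the 8.

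On control diet Mfsd2a was at 8.65, 7.77, 9.25 and 8.95 CPM after stroke, against 17.4, 11.3 and 12.9 CPM after sham surgery. Every stroke library was below every sham library, and the log2 fold change was -0.69 ± 0.18 (SE, edgeR adjusted p = 0.0224), a level 0.622 times that in sham. Sham replicate 1 was the highest of all 26 libraries, and without it the control fit called 0 of the 10 genes. Over 17 alternatives the log2 fold change lay between -0.83 and -0.49 with adjusted p between 0.00577 and 0.176, and 13 kept the call. In HFD stroke Mfsd2a spanned 6.48 to 12.4 CPM with a median of 10.7 CPM, against 10.95, 12.1 and 13.4 CPM in HFD sham. These overlapped, with a log2 fold change of -0.25 ± 0.17 (edgeR adjusted p = 0.299). The difference between the diets in this response was 0.44 ± 0.25 on the log2 scale (95% interval -0.07 to 0.95, adjusted p = 0.832).

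The ratio of Mfsd2a to Cdh5 within each library was lower in stroke than in sham cortex at 6 weeks on both diets. Cdh5 had the largest stroke log2 fold change of the 10 genes on each diet (1.19 on HFD, 0.98 on control diet). Its choice as divisor therefore made a lower ratio in stroke likely beforehand, while Mfsd2a alone overlapped between the HFD groups. The ratio of Mfsd2a CPM to Cdh5 CPM was 0.367 to 1.12 in HFD stroke at 6 weeks, against 1.43 to 2.22 in HFD sham. In control stroke at 6 weeks it was 0.517 to 1.01, against 1.69 to 2.60 in control sham. In 15-week stroke it was 0.221 to 0.861 on HFD and 0.234 to 0.786 on control diet. At 6 weeks no stroke library reached the lowest sham ratio, and no share over other pairs of genes was computed to set beside this. The 15-week ratios have no sham of that time beside them, so surgery there cannot be told apart from time on the diet or age. A ratio shows unequal change of the pair, and since it was formed after both genes' values were known it is given without a test. Against Abcb1a CPM, whose fold changes were small, the ratio of Mfsd2a was 0.141 to 0.295 in HFD stroke and 0.292 to 0.336 in HFD sham, so these groups overlapped. On control diet it was 0.170 to 0.228 in stroke and 0.252 to 0.553 in sham, with no overlap. In 15-week stroke it reached at most 0.250 on HFD and 0.223 on control diet.

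**Figure D4:**
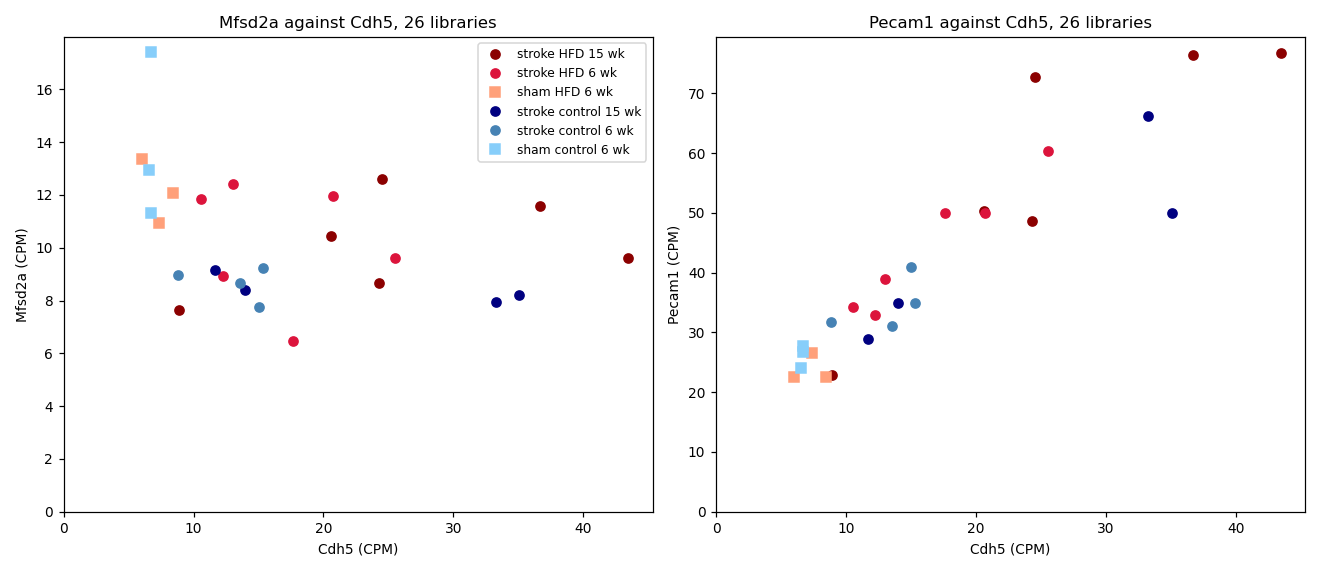
Mfsd2a (left) and Pecam1 (right) against Cdh5, in CPM, for 26 libraries, with circles for stroke and squares for sham. Sham libraries sit at the lowest Cdh5 levels, 6.01 to 8.44 CPM, with Mfsd2a between 10.95 and 17.4 CPM, while Pecam1 rises along with Cdh5.

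Other genes of the barrier, taken from lists chosen by function, were counted in the same 2 comparisons. Of all 16325 genes, 14.2% were called higher and 8.85% lower on HFD, and 5.10% and 2.57% on control diet. These shares stand beside the list counts that follow, several of which lie near them. Of 10 other tight junction genes tested, 4 rose on HFD and 1 on control diet, and none fell. F11r, which encodes the junctional adhesion molecule JAM-A and is also found on platelets and leukocytes, rose by a log2 fold change of 1.67 ± 0.30 on HFD (edgeR adjusted p = 0.000566) and 1.33 ± 0.31 on control diet (adjusted p = 0.0136). Of 19 other barrier transporters, 5 rose and 1 fell on HFD, and 1 rose on control diet. Slc16a1, the monocarboxylate carrier MCT1, rose by 0.73 ± 0.09 on HFD (adjusted p = 0.000107), and Slc39a10, a zinc transporter, fell by 0.48 ± 0.09 on the log2 scale (adjusted p = 0.000846). The amino acid carrier Slc38a5 rose on both diets, by 1.89 ± 0.42 on HFD and 1.49 ± 0.43 on control diet. The medians were 0.28 and 0.06 log2 units for these lists on HFD and 0.16 and 0.18 on control diet.

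Of the 30 other endothelial identity genes, 12 rose and 1 fell on HFD and 1 rose on control diet, with median log2 fold changes of 0.55 and 0.30. The rise on both diets was that of Itm2a, a membrane protein of brain endothelium, by 0.54 ± 0.10 on HFD (edgeR adjusted p = 0.000754) and 0.55 ± 0.11 on control diet (adjusted p = 0.00524). The transcription factor genes Fli1 and Sox17 of that list rose by 1.45 ± 0.29 and 0.71 ± 0.15 on HFD. Of 16 Wnt pathway genes, 6 rose on HFD and 3 on control diet, with medians of 0.23 and 0.16. These included, on both diets, the ligand Wnt7b (0.49 ± 0.10 on HFD and 0.49 ± 0.11 on control diet), the Wnt target Apcdd1 (0.72 ± 0.13 and 0.60 ± 0.14) and the receptor partner Tspan12 (0.45 ± 0.11 and 0.42 ± 0.12). Of 14 genes of endothelial activation and leakage, 10 rose on HFD and 5 on control diet. Icam1, which arrests leukocytes, was at 9.53 ± 2.75 CPM (SD, n = 6) in HFD stroke and 2.07 ± 0.519 CPM (SD, n = 3) in HFD sham. Of 8 caveola genes 3 rose on HFD, with Cav1 at 1.15 ± 0.24 log2 units (adjusted p = 0.00195), and 0 were called on control diet, where Cav1 had 0.71 ± 0.25 (adjusted p = 0.0853).

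Some genes of neighbouring cells moved in the same libraries, with list counts to be read beside the shares over all genes given above. Of 13 mural cell markers, 4 rose on HFD and 1 on control diet. Kcnj8, a pericyte potassium channel gene, was called on both, at 0.98 ± 0.24 on HFD (edgeR adjusted p = 0.0050) and 0.83 ± 0.25 on control diet (adjusted p = 0.0453). Of 11 basement membrane genes, 5 rose on HFD and 2 on control diet. Of 10 astrocyte endfoot genes, Aqp4, the water channel of endfeet, rose on both diets (1.02 ± 0.16 and 0.97 ± 0.17), while the connexin gene Gjb6 fell by 0.32 ± 0.08 on HFD and by 0.48 ± 0.08 on control diet. Slc1a2, the glutamate transporter gene, also fell on HFD, by 0.37 ± 0.13 (adjusted p = 0.0364).

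Markers of cells that share Pecam1 or come with blood were counted too, and of these only myeloid markers were called on both diets. All 10 myeloid markers rose on both diets: their summed level was 770 to 1722 CPM in HFD stroke, against 119.5 to 129.8 CPM in HFD sham, and 371 to 1256 CPM in control stroke, against 118 to 135 CPM in control sham. All 5 haemoglobin and red cell genes tested rose on HFD and 0 on control diet, with sums over the list of 163 to 308 CPM in HFD stroke and 78.5 to 109 CPM in HFD sham. Their sums were 154 to 220 CPM in control stroke and 133 to 160 CPM in control sham. Of 3 platelet markers tested, Pf4 rose on HFD, and Gp1ba was at 0 in every HFD library. The platelet list summed to 4.59 to 9.66 CPM in HFD stroke and 2.34 to 3.53 CPM in HFD sham, and to 4.08 to 6.34 CPM in control stroke and 2.59 to 4.41 CPM in control sham. Meningeal and fibroblast markers, 5 of 12 of which rose on HFD and 0 on control diet, summed to 198 to 379 CPM in HFD stroke and 140.3 to 162 CPM in HFD sham. On control diet their sums were 207 to 269 CPM in stroke and 133 to 169.9 CPM in sham. Excitatory neuron markers, 5 of 10 of which fell on HFD and 0 on control diet, summed to 3733 to 4583 CPM in HFD stroke and 5013 to 5517 CPM in HFD sham. On control diet they summed to 3865 to 4667 CPM in stroke and 4997 to 5370 CPM in sham. The part of these cells in the results on the 10 genes and on the other endothelial lists was not tested.

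Diet alone was followed by no call among the 10 genes. HFD was compared with control diet in 15-week stroke, 6-week stroke and 6-week sham, and each comparison called 0 of 16325 genes (0%) in edgeR, with 1299, 1141 and 782 genes at an unadjusted p under 0.05. DESeq2 called 10, 0 and 2 genes of the whole table in these, and voom 0, 0 and 1, none among the 10. In 6-week stroke the log2 fold change of Cldn5 was 0.40 ± 0.24 (95% interval -0.09 to 0.89), and in 15-week stroke it was 0.22 ± 0.24 (95% interval -0.27 to 0.71). Cdh5 had wider intervals, -0.41 to 1.09 in 6-week stroke, while those of Tjp1 (-0.15 to 0.11) and Slco1c1 (-0.18 to 0.10) were narrow. In sham, all HFD libraries were below all control libraries for Cldn5 and Ocln, and above them for Tjp1, where 7.00% of all genes were apart downward and 4.66% upward. Sham Cldn5 was 18.7 ± 2.07 CPM on HFD and 21.9 ± 0.616 CPM on control diet (SD, n = 3 each), with a log2 fold change of -0.23 ± 0.31. HFD sham is also the group that HFD stroke was set against above, so the 2 comparisons share those libraries.

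Time on the diet was compared between 15 and 6 weeks in stroke cortex, where it cannot be told apart from age or handling. None of the 10 genes was called on either diet, where 2.35% of all genes were called on HFD and 0.564% on control diet. Abcb1a came closest. In HFD stroke it stood at 47.2 to 57.96 CPM at 15 weeks with a median of 52.7 CPM, against 36.6 to 45.9 CPM at 6 weeks with a median of 43.9 CPM. No library overlapped, while 0.557% of all genes were apart upward and 1.23% downward in that comparison. The log2 fold change was 0.30 ± 0.09 (SE, edgeR adjusted p = 0.061). DESeq2 (adjusted p = 0.0234), a minimum count of 50 (0.0485), voom with quality weights (0.0151) and the fit without 15-week HFD replicate 1 (0.0235) called it. That replicate, at 47.2 CPM, was the lowest of its group, so leaving it out raised the 15-week mean. On control diet Abcb1a was at 54.6, 47.7, 45.6 and 37.6 CPM at 15 weeks, against 43.04, 45.7, 40.5 and 47.4 CPM at 6 weeks, with a log2 fold change of 0.07 ± 0.11. The test of diet by weeks gave 0.24 ± 0.14 for Abcb1a (95% interval -0.05 to 0.52), and called 0 of 16325 genes (0%), with 792 at an unadjusted p under 0.05. DESeq2 and voom called 0 genes in that test.

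Cdh5 reached its highest levels at 15 weeks. On HFD it stood between 8.88 and 43.5 CPM with a median of 24.4 CPM at 15 weeks, against a median of 15.3 CPM at 6 weeks, with a log2 fold change of 0.67 ± 0.31 (edgeR adjusted p = 0.268). On control diet it was at 33.3, 35.1, 11.7 and 14.0 CPM at 15 weeks, against 13.6, 15.0, 15.3 and 8.82 CPM at 6 weeks (log2 fold change 0.84 ± 0.39, adjusted p = 0.283). The lowest library of each 15-week group was the one lowest in myeloid markers. Without that pair of libraries 3 of the 10 genes were called on HFD, where 1715 of 16300 genes were called, against 384 of 16325 with all libraries. They were Abcb1a (log2 fold change 0.34, edgeR adjusted p = 0.0215), Pecam1 (0.56, adjusted p = 0.0467) and Cdh5 (0.85, adjusted p = 0.0406). HFD replicate 1 was the lowest 15-week HFD library for all 3, with Abcb1a at 47.2 and Pecam1 at 22.9 CPM. Leaving it out therefore raised the 15-week mean of these genes, so the 3 calls are no independent support for a rise. Voom called the same 3 genes with all libraries, where it called 1880 of 16325 genes. Mfsd2a lay near 0 in both comparisons, at -0.01 ± 0.14 on HFD and -0.04 ± 0.17 on control diet, and Slco1c1 had -0.11 ± 0.06 and -0.16 ± 0.07, not called. Of the 30 other endothelial identity genes, Ptprb, a phosphatase gene of endothelial junctions, rose at 15 weeks on HFD by 0.49 ± 0.13 (adjusted p = 0.0368).

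**Figure D5:**
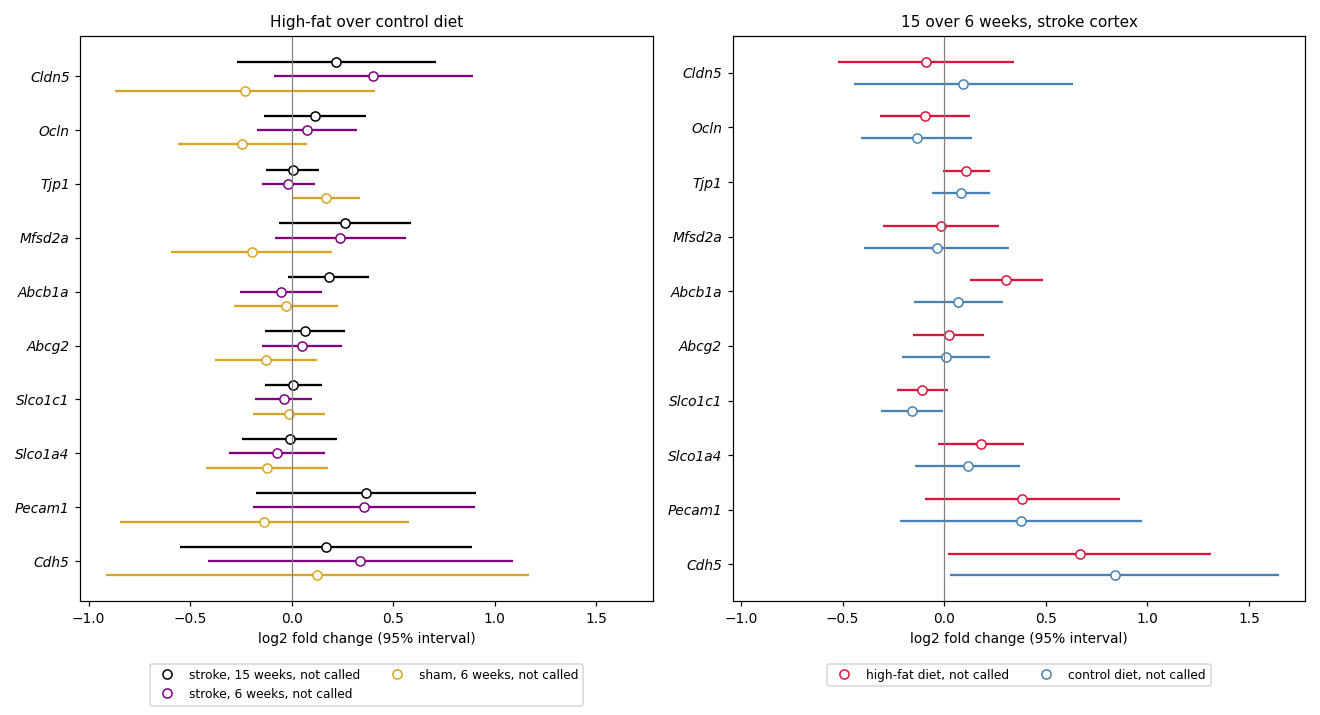
Log2 fold changes with 95% intervals for HFD over control diet in 3 settings (left) and for 15 over 6 weeks in stroke cortex on each diet (right). Open points mark values that did not pass an adjusted p of 0.05, and all 50 points are open; Abcb1a on HFD at 15 over 6 weeks, at 0.30, has an interval of 0.13 to 0.48.

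The 10 genes did not vary as a block between libraries. The 20 stroke libraries share tissue and surgery but differ in diet, weeks, depth and myeloid marker levels (183 to 2397 CPM), so correlations over them also hold differences between groups. Over them the median Pearson correlation of log2 CPM among the 45 pairs was 0.29, with 14 pairs above 0.5 and 7 below 0. Pecam1 and Cdh5 were the closest pair, at 0.92, followed in kind by Tjp1 and Cdh5 (0.83) and Cldn5 and Pecam1 (0.82). Slco1a4 and Ocln were the most opposed, at -0.25, and Slco1c1 and Mfsd2a had correlations of -0.07 and 0.12 with Cdh5. Taken as deviations from group means over all 26 libraries, Slco1a4 and Ocln had -0.03. In the same measure Slco1c1, Mfsd2a and Pecam1 had 0.28, 0.05 and 0.91 with Cdh5. The spread within 15-week HFD stroke, as a coefficient of variation, was 46.2% for Cdh5, 36.9% for Pecam1 and 34.5% for Cldn5, against 7.07% for Abcb1a, 8.21% for Slco1c1 and 8.27% for Tjp1.

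The genes most like 9 of the members over the 26 libraries were named as a description. For Cdh5 they were the matrix genes Fn1, Hspg2 and Nid1, with Pearson correlations of log2 CPM of 0.98, 0.98 and 0.98 over all 26 libraries and 0.97, 0.98 and 0.97 over the 20 stroke libraries. For Pecam1 they were Mcam, Anxa5 and P4hb (0.98, 0.97 and 0.97 over 26 libraries), and for Cldn5 Ly6a, Pcna and Cnn2 (0.94, 0.93 and 0.93), where Ly6a is itself an endothelial surface gene and Pcna a gene of DNA replication. For Abcb1a the closest was the endothelial gene Ptprb (0.86 over 26 and 0.87 over 20 libraries), and for Slco1c1 the closest 3 were Myo6, Ugp2 and Tspan12 (0.84, 0.83 and 0.81). For Ocln, Tjp1 and Abcg2 the closest were Ctso (0.83), Parp4 (0.90) and H2-Q5 (0.85). For Mfsd2a the closest was Arrdc2, with 0.77 over 26 libraries and 0.65 over the 20 stroke libraries. These correlations also hold differences between groups. As deviations from group means, Mfsd2a with Arrdc2 had 0.525, Abcb1a with Ptprb 0.69 and Slco1c1 with Tspan12 0.56. In that measure Cdh5 had 0.96 with each of Fn1, Hspg2 and Nid1.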

How the data were processed

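Total RNA of frozen mouse cortex was sequenced as stranded paired-end libraries, per the labels' protocols. Each library has a deposited table of raw counts by Ensembl identifier, whole numbers with no sign of normalization by the authors. The submitters' processing notes name Trim Galore, STAR, HTSeq and featureCounts, and mm9 as build, without versions or roles, so only RefSeq promoter coordinates, on GRCm38.p6, are printed. Summary entries (45.69% to 58.16% of counts in a file) entered neither library sizes nor tests. Names came from a GENCODE table that matched 37607 of 39179 identifiers and also gave exon lengths.

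Genes passed filterByExpr (minimum count 10) in edgeR 4.0.16 under R 4.3.3. Counts were scaled by TMM and all 26 libraries fitted with 1 mean per group by the robust quasi-likelihood method. The 9 contrasts were adjusted by Benjamini-Hochberg over all 16325 genes, with a threshold of 0.05. CPM values are scaled by TMM, and correlations use log2 CPM with a prior count of 2. Counts of libraries within a group differed by more than sampling noise (chi-square per degree of freedom 3.52 to 76.2). The procedure was tested on simulated counts.

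The 10 genes and all 18 lists were chosen with earlier results of these data known. Named genes are the 10, up to 4 per list with the smallest p, and the 3 most correlated with each. Alternatives were RLE size factors, DESeq2 1.42.0, voom with quality weights in limma 3.58.1, other filters, only the groups compared, library sizes without mitochondrial, haemoglobin and ribosomal RNA genes, the outside-gene share of fragments as a covariate, and libraries left out singly or in pairs. Precision is limited by 3 to 6 libraries per group and, for Cdh5 and Mfsd2a, by counts as low as 85 and 93. The genes most like Slco1a4 are not reported here.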

Additional observations from a re-analysis of the deposited data

How the results depend on the processing

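Over 10 genes and 9 comparisons, 1880 values were recomputed under the alternatives. Of these 1688 kept their side of the threshold and their sign, 49 lost a call, 17 gained one, 126 changed sign between 2 values that were both not called, and 0 reversed a call. Of the 90 gene results, 40 kept side and sign throughout. The number of the 10 genes called for stroke against sham on HFD, 6, was 3 without a low-count filter, 0 with the outside-gene share as a covariate and 1 without the pair high in choroid plexus genes, and ranged between 1 and 6 when 1 library was left out. With that covariate the log2 fold changes of the 6 lay between 0.27 (Slco1c1) and 1.12 (Cdh5). On control diet the number, 2, was 1 with no filter, 6 with only the groups compared and 0 with the covariate, and ranged between 0 and 2 when 1 library was left out. For 15 against 6 weeks on HFD the number, 0, was 1 by DESeq2, 1 with a minimum count of 50, 3 by voom and 3 without the 15-week pair low in myeloid markers, and ranged between 0 and 1 when 1 library was left out. The other 6 comparisons called 0 of the 10 genes under every alternative. Apart from fewer samples or genes where these were left out, the cause was not tested. No paired analysis was possible because the labels give no replicate numbers.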

Other observations

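Of 7 tested close paralogs of the set, 3 rose after stroke on HFD and 1 on control diet, where 14.2% and 5.10% of all genes were called higher. Slco2b1, which encodes the organic anion carrier Oatp2b1, was called on both diets. It stood at 35.1 ± 5.65 CPM (SD, n = 6) in HFD stroke and 16.5 ± 1.99 CPM (SD, n = 3) in HFD sham, a log2 fold change of 1.09 ± 0.23 (SE, edgeR adjusted p = 0.00195). On control diet it was at 29.4 ± 6.01 CPM (SD, n = 4) after stroke and 16.4 ± 0.884 CPM (SD, n = 3) after sham surgery, a log2 fold change of 0.84 ± 0.24 (edgeR adjusted p = 0.0360). All 10 myeloid markers rose in the same 2 comparisons, and which cells the Slco2b1 RNA came from was not tested. Among oligodendrocyte markers, 1 of 7 rose on HFD and 0 on control diet. That gene was Cldn11, the claudin of myelin, at 0.97 ± 0.25 on HFD (adjusted p = 0.00819), and 0.44 ± 0.26 on control diet (adjusted p = 0.322).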
